A study of Homo sapiens with 22 samples.

Results

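The 10 genes described here encode proteins that meet a collided ribosome with ZNF598 or just after it, or subunits of complexes that do. They are the 4 subunits of the ASC-1 complex (ASCC1, ASCC2, ASCC3 and TRIP4), the collision sensors and ribosome-bound factors EDF1, RACK1 and MAP3K20, and the translational repressors GIGYF1, GIGYF2 and EIF4E2. They were chosen by name, from knowledge of the pathway and with earlier results of these data known. Each was read from 1 row of the count files, the protein-coding GENCODE transcript with the highest mean count over the libraries of 0-10 h. The files held 64899 genes, with each transcript that matched no GENCODE gene counted as 1 gene. Of these, 15093 reached a mean of 1 CPM (counts scaled to a common library total) in at least 1 row. Among them were 10 of 10 genes of the list. Their mRNAs were followed in HEK293T cells, a line from human embryonic kidney, that expressed a control hairpin (shControl) or a hairpin against ZNF598 (shZNF598).

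The cells were grown for 24 h with 150 µM bromouridine (BrU), which is built into new RNA, and were then chased in medium free of BrU. Chase times were 0, 2, 4, 6 and 10 h, and a later one of 24 h. BrU-containing RNA was captured with an antibody and sequenced (BRIC-Seq), so that a falling level in the chase followed the loss of labelled mRNA. There were 2 libraries for each hairpin at 0-10 h and 1 for each at 24 h, 22 libraries in 12 groups. No label said whether replicates came from separate cultures, so the p-values measure only the spread between these libraries. For the slopes, this spread also holds any departure of the levels from a straight line over the chase times.

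Levels are given as CPM of the library total multiplied by its TMM factor, the scaling that the edgeR fit of differences and slopes also used. The TMM factors fell from 1.12-1.16 at 0 h to 0.723-0.755 at 10 h, so levels and slopes over the chase depended on this scaling. With library totals alone, an alternative added after the data were seen, the median slope of all rows moved from -0.0178 to -0.0855 log2 per hour in shControl and from -0.0144 to -0.0755 in shZNF598, and the share of positive slopes among those that passed moved from 45.1% to 22.5% and from 46.0% to 22.5%. Spike-in RNA was not used here, so a slope is relative to the bulk of the labelled RNA. On the TMM scale a slope of 0 means that a transcript was lost as fast as the bulk, a positive slope that it was lost more slowly, and neither gives a half-life. In bulk RNA, fewer cells with a transcript and less of it per cell cannot be told apart. With 2 libraries per group, the shZNF598 pair can lie wholly above or below the shControl pair at a chase time without a difference in level. How often this occurred over all rows was counted only for shZNF598 above shControl at all 5 times.

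A ribosome that stalls on an mRNA is run into by the one behind it. The E3 ubiquitin ligase ZNF598 recognises the interface of the collided pair and ubiquitinates the small-subunit proteins RPS10 and RPS20. The ASC-1 complex, with the helicase ASCC3, then pulls the leading ribosome apart. RACK1 is a constant part of the small subunit and lies at that interface. EDF1 binds collided ribosomes and helps to bring in GIGYF2 and the cap-binding protein EIF4E2 (also called 4EHP), which stop new initiation on the same mRNA. MAP3K20 (also called ZAK) is a kinase that is activated at collided ribosomes and signals to the JNK and p38 stress kinases.

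Library totals of 0-10 h ranged from 52352359 to 96963584 counts. In the check of the labels, ZNF598 stood at 3.97-8.37 CPM in the 10 shControl libraries and at 0.411-1.05 CPM in the 10 shZNF598 libraries of 0-10 h, a mean log2 difference of -3.05 (SE 0.09, edgeR quasi-likelihood test, adjusted p = 1.17e-18). Genes that HEK293T cells are known to express were present (VIM at 96.8-221 CPM, LIN28B at 9.84-38.9 and INA at 7.3-16.1), and ALB, AFP, PTPRC, HBG1 and ESR1 had at most 2 counts in any library. All 6 HEK293T markers looked up passed the filter. The 2 shControl libraries of 0 h differed more than any other pair, with a chi-square of 12.22 per degree of freedom against 1.93-8.41 in the other 9 groups.

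The genes of the list fell into a group whose labelled mRNA was lost faster than the bulk and a group in which it was lost more slowly. In shControl cells, 3 of the 10 (RACK1, ASCC3 and EDF1) had a positive slope that passed the test, against 33.5% of the 79513 rows tested, and 5 (EIF4E2, ASCC1, MAP3K20, TRIP4 and GIGYF2) had a negative one, against 40.8%. In shZNF598 cells, GIGYF1 and ASCC2 passed too, which made 5 positive slopes against 32.7% of rows, and the same 5 genes were negative, against 38.5%. On the scale of log2 per hour, the median slope of the list was -0.0143 (shControl) and 4e-04 (shZNF598), beside -0.0178 and -0.0144 over all rows. The directions thus divided near the shares of all transcripts. With library totals alone, the slopes of the same 5 negative genes passed again in both cell populations, and RACK1 was the only positive slope that passed. Of all rows, 78.5% in shControl and 75.8% in shZNF598 passed on this scale, and 22.5% of those were positive in each. ASCC3 (0.031 and 0.011 in shControl and shZNF598) and EDF1 (0.019 and -0.005) no longer passed, ASCC2 (-0.041, edgeR adjusted p = 0.0291) and GIGYF1 (-0.046, adjusted p = 0.0242) passed as negative in shControl, and neither passed in shZNF598 (-0.006 and 0.001). On this scale a slope of 0 did not mark the bulk. The medians of all rows were -0.0855 in shControl and -0.0755 in shZNF598, and the slopes of ASCC2 and GIGYF1 lay above them.

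**Figure D1:**
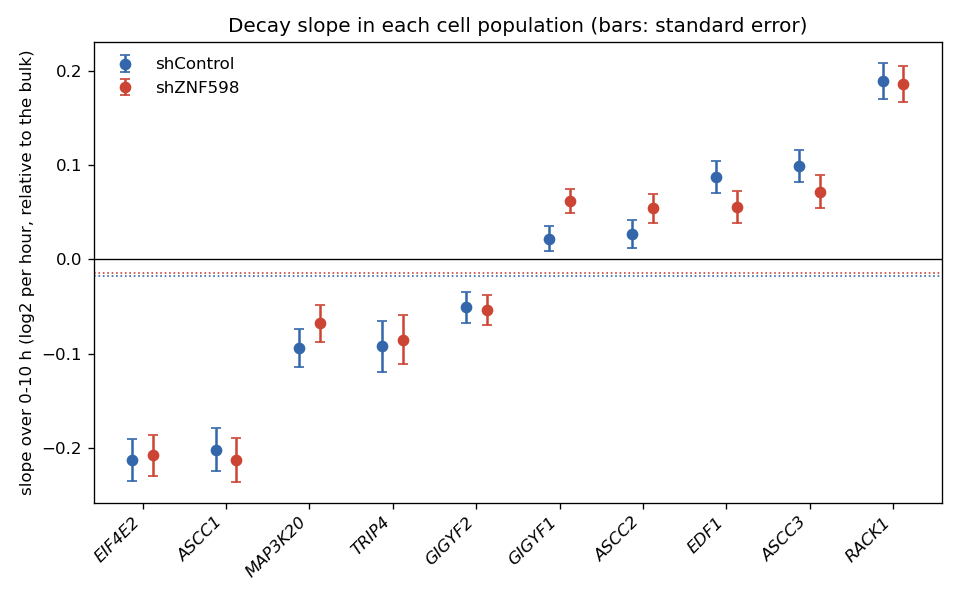
Slope of log2 level over 0-10 h of chase (y axis, log2 per hour with TMM scaling) for each gene (x axis, ordered by the shControl slope) in shControl (blue) and shZNF598 (red) cells. Points are edgeR estimates from 20 libraries, bars are standard errors, and dotted lines mark the median of all 79513 rows. EIF4E2 and ASCC1 lie near -0.2, RACK1 near 0.189, and the points of both cell populations lie close together. With library totals alone, ASCC2 lies below 0 in both, GIGYF1 in shControl and EDF1 in shZNF598. On that scale the medians of all rows are -0.0855 in shControl and -0.0755 in shZNF598.

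RACK1 was by far the most abundant of the 10 and gained most on the bulk (ENST00000512805.6, 8 exons, chr5:181236897-181243906, minus strand, GRCh38). The shControl libraries gave 180 and 224 CPM at 0 h, 190 and 188 at 2 h, 246 and 243 at 4 h, 352 and 405 at 6 h, and 667 and 676 at 10 h. The shZNF598 libraries gave 201 and 213 CPM at 0 h, 210 and 181 at 2 h, 237 and 257 at 4 h, 378 and 456 at 6 h, and 670 and 659 at 10 h. The values were level to 2 h and then climbed, and those of the cell populations overlapped at all 5 times. The slope was 0.189 log2 per hour (SE 0.019, edgeR adjusted p = 1.59e-08) in shControl and 0.186 (SE 0.019, adjusted p = 3.29e-08) in shZNF598, and the level at 10 h was 333% and 321% of that at 0 h (212% and 215% with library totals alone). All 35 RACK1 rows passed the filter, with shControl slopes of 0.154-0.209, but they share most of their exons, so reads could count for several of them.

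EDF1, the other small and abundant mRNA of the list (ENST00000224073.6, 5 exons, chr9:136862119-136866308, minus strand), was lowest at 2 h and highest at 10 h in shControl on the TMM scale, while by library totals alone its level at 10 h was 105% of that at 0 h in shControl and 93% in shZNF598. In shControl its level was 10.7 and 13 CPM at 0 h, 9.93 and 8.52 at 2 h, 11.7 and 11.7 at 4 h, 12.8 and 14.9 at 6 h, and 18.7 and 20.2 at 10 h. In shZNF598 it was 13.2 and 11.9 CPM at 0 h, 11.7 and 10.5 at 2 h, 11.4 and 13 at 4 h, 12.7 and 15.4 at 6 h, and 16.7 and 18.2 at 10 h. The shZNF598 pair lay above the shControl pair at 2 h and below it at 10 h, and the pairs overlapped at the other 3 times. The slope was 0.087 log2 per hour (SE 0.017, edgeR adjusted p = 0.000103) in shControl and 0.056 (SE 0.017, adjusted p = 0.00634) in shZNF598. Both turned negative over 0-4 h alone (-0.015 and -0.010), and the shZNF598 slope was 0.046 (adjusted p = 0.0519) without the second shZNF598 library of 10 h.

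The start of the mRNA is shown for 4 genes, because many mRNAs of the translation machinery are known to begin with an unbroken pyrimidine tract (5′TOP mRNAs). The 4 are the genes of the list with the highest level per kb, RACK1 and EDF1, and the genes with the steepest negative slopes, ASCC1 and EIF4E2. Each sequence (RefSeq, GRCh38.p14) holds 40 bases before and 20 bases from the annotated start, 5′ to 3′ on the strand of the gene, and capitals mark the run of C and T that begins at the start site.
RACK1, chr5:181243887-181243946, minus strand: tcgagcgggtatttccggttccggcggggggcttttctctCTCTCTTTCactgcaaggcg
EDF1, chr9:136866289-136866348, minus strand: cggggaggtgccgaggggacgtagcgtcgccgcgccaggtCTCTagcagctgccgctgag
ASCC1, chr10:72216257-72216316, minus strand: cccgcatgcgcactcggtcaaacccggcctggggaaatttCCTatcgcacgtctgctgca
EIF4E2, chr2:232550649-232550708, plus strand: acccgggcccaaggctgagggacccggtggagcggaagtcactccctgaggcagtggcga

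RACK1 began with a run of 9 pyrimidines. A start with C and a run of at least 5 was found in 4.07% of 35116 windows, and one of at least 9 in 1.07%. The run was 4 bases long in EDF1 and 3 in ASCC1, and EIF4E2 had none at this start, which lies 6 bases from the start of its counted row. Windows were found for 8 of the 10 genes (not ASCC3 and GIGYF1), and RACK1 was the only one of the 8 with a run of 5 or more. The annotated start was not measured in these cells.

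The 3′ untranslated regions ranged from 80 to 5616 nt. That of RACK1 was 80 nt long and that of EDF1 165 nt, against 1302 nt in ASCC1, 2772 in EIF4E2 and 5616 in MAP3K20, and the median of 8897 tested protein-coding genes was 1452 nt. The pentamer ATTTA, the core of AU-rich elements, occurred in the 3′ untranslated regions of 6 of the 10 genes and of 75.0% of the 8897. It was found 12 times in MAP3K20 and 6 times each in ASCC3 and GIGYF2, of which ASCC3 had a positive and GIGYF2 a negative slope, and it was missing from GIGYF1, ASCC2, EDF1 and RACK1.

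**Figure D2:**
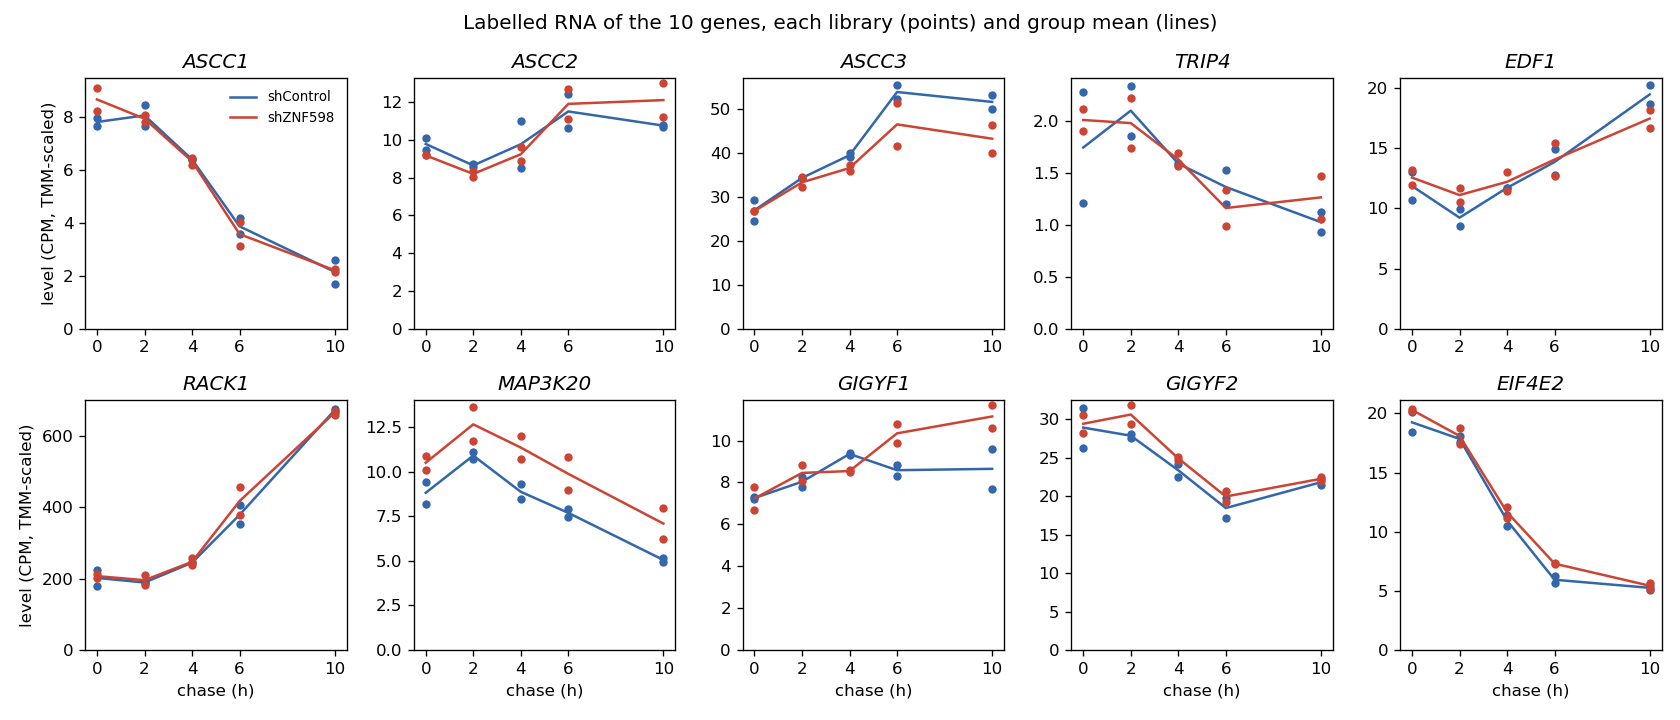
Level of labelled RNA (y axis, CPM with TMM scaling, linear axis from 0) against chase time (x axis, h) for each of the 10 genes in shControl (blue) and shZNF598 (red) cells. Points are single libraries, 2 for each cell population and time, and lines join the group means. RACK1 climbed from 180-224 CPM to 659-676, ASCC1 and EIF4E2 fell to 25.6-27.6% of their 0 h level, and MAP3K20 is the gene whose red points lie above the blue at all 5 times.

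The 4 subunits of the ASC-1 complex did not share a course. ASCC3, the helicase that does the splitting (ENST00000369162.7, 42 exons, chr6:100508194-100881329, minus strand), became more abundant relative to the bulk on the TMM scale, a gain that did not pass with library totals alone (122% and 108% of the 0 h level at 10 h in shControl and shZNF598). With the control hairpin it was at 29.3 and 24.5 CPM at 0 h, 34.2 and 34.3 at 2 h, 38.9 and 39.9 at 4 h, 55.3 and 52.2 at 6 h, and 50 and 53 at 10 h. Its shZNF598 values were 26.7 and 26.8 CPM at 0 h, 32.1 and 34.4 at 2 h, 37.2 and 35.8 at 4 h, 51.3 and 41.5 at 6 h, and 46.3 and 40 at 10 h. The pairs overlapped at 0 and 2 h, and both shZNF598 libraries lay below both shControl libraries at 4, 6 and 10 h. The share of all rows with that pattern was not counted. The slope was 0.099 log2 per hour (SE 0.017, edgeR adjusted p = 2.96e-05) in shControl and 0.072 (SE 0.017, adjusted p = 0.000954) in shZNF598. Of the 7 ASCC3 rows tested, 6 had positive shControl slopes, and ENST00000369143.2, also protein coding, had a slope of -0.044 (adjusted p = 0.0187).

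ASCC1, a subunit of the complex in its roles in transcription and DNA alkylation repair, went the opposite way (ENST00000672957.1, 10 exons, chr10:72096032-72216276, minus strand). In shControl it was at 7.67 and 7.97 CPM at 0 h, 7.68 and 8.46 at 2 h, 6.42 and 6.39 at 4 h, 4.18 and 3.57 at 6 h, and 2.60 and 1.71 at 10 h. With the ZNF598 hairpin it was at 8.25 and 9.10 CPM at 0 h, 7.81 and 8.08 at 2 h, 6.20 and 6.47 at 4 h, 4.04 and 3.12 at 6 h, and 2.28 and 2.15 at 10 h. The level held to 2 h and then fell, and the pairs overlapped from 2 h on. The slope was -0.202 log2 per hour (SE 0.023, edgeR adjusted p = 1.15e-07) in shControl and -0.213 (SE 0.023, adjusted p = 7.05e-08) in shZNF598, and 27.6% and 25.6% of the 0 h level was left at 10 h (17.6% and 17.1% with library totals alone). All 22 ASCC1 rows tested had shControl slopes between -0.214 and -0.170.

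TRIP4, the zinc finger subunit after which the complex was first named (ENST00000261884.8, 13 exons, chr15:64387836-64455303, plus strand), was the least abundant of the 10, with a mean of 114.0 counts per library. Its shControl values were 2.28 and 1.21 CPM at 0 h, 1.86 and 2.34 at 2 h, 1.58 and 1.60 at 4 h, 1.53 and 1.20 at 6 h, and 1.12 and 0.933 at 10 h. In shZNF598 it was at 2.12 and 1.90 CPM at 0 h, 1.74 and 2.22 at 2 h, 1.69 and 1.57 at 4 h, 1.34 and 0.985 at 6 h, and 1.06 and 1.47 at 10 h. Its pairs overlapped at all 5 times, and the widest of them was the shControl pair of 0 h. The slope was -0.092 log2 per hour (SE 0.027, edgeR adjusted p = 0.00433) in shControl and -0.085 (SE 0.026, adjusted p = 0.00668) in shZNF598. With the 24 h libraries added, the shControl slope was 0.004.

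ASCC2, which binds the ubiquitin chains laid down by ZNF598 (ENST00000397771.6, 21 exons, chr22:29788642-29838276, minus strand), had the shControl slope nearest 0 after that of GIGYF1 on the TMM scale. Its slopes turned negative with library totals alone, but stayed above the medians of all rows (-0.0855 in shControl and -0.0755 in shZNF598). The shControl libraries gave 10.1 and 9.46 CPM at 0 h, 8.72 and 8.57 at 2 h, 11 and 8.53 at 4 h, 10.6 and 12.4 at 6 h, and 10.8 and 10.7 at 10 h. The shZNF598 libraries gave 9.18 and 9.17 CPM at 0 h, 8.36 and 8.03 at 2 h, 9.60 and 8.87 at 4 h, 11.1 and 12.7 at 6 h, and 11.2 and 13 at 10 h. The shZNF598 pair was below the shControl pair at 0 and 2 h and above it at 10 h. The slope was 0.027 log2 per hour (SE 0.015, edgeR adjusted p = 0.115) in shControl and 0.054 (SE 0.015, adjusted p = 0.00304) in shZNF598, and the difference between these slopes did not pass (0.028, SE 0.021, adjusted p = 1). With DESeq2 size factors in place of TMM the shControl slope passed as well (0.038, edgeR adjusted p = 0.0217).

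Among the repressors, EIF4E2 had the lowest slope estimate of the list in shControl, within 1 SE of that of ASCC1 (ENST00000409514.5, 8 exons, chr2:232550683-232583642, plus strand). With the control hairpin it was at 18.4 and 20.1 CPM at 0 h, 17.6 and 18.1 at 2 h, 10.5 and 11.4 at 4 h, 5.63 and 6.26 at 6 h, and 5.08 and 5.44 at 10 h. Its shZNF598 values were 20.2 and 20.4 CPM at 0 h, 17.4 and 18.8 at 2 h, 11.2 and 12.1 at 4 h, 7.35 and 7.26 at 6 h, and 5.19 and 5.69 at 10 h. Most of the fall came between 2 and 6 h, and the shZNF598 pair was the higher at 0 and 6 h. In shControl the slope was -0.213 log2 per hour (SE 0.022, edgeR adjusted p = 2.49e-08), and in shZNF598 it was -0.208 (SE 0.022, adjusted p = 5.39e-08), and the level at 10 h was 27.4% and 26.8% of that at 0 h (17.4% and 17.9% with library totals alone). All 11 rows tested had negative shControl slopes, from -0.298 to -0.084.

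GIGYF2, which carries EIF4E2 and its partners to the mRNA, fell by less (ENST00000629305.2, 30 exons, chr2:232697305-232860575, plus strand). In shControl it was at 31.5 and 26.3 CPM at 0 h, 28.1 and 27.6 at 2 h, 24.2 and 22.5 at 4 h, 19.7 and 17.2 at 6 h, and 21.4 and 22.2 at 10 h. With the ZNF598 hairpin it was at 30.6 and 28.2 CPM at 0 h, 29.4 and 31.8 at 2 h, 24.7 and 25.1 at 4 h, 20.7 and 19.2 at 6 h, and 22.5 and 22 at 10 h. The lowest values were those of 6 h in both cell populations. The slope was -0.051 log2 per hour (SE 0.016, edgeR adjusted p = 0.00663) in shControl and -0.054 (SE 0.016, adjusted p = 0.00523) in shZNF598, and with the 24 h libraries it was 0.012 and 0.004. The shControl slope was at percentile 45.7 of genes by 1 row each, so GIGYF2 lay near the middle of all genes. The coding sequence of GIGYF2 held the longest lysine run of the list, 5 codons in a row, a length reached by 1.4% of the 8897 protein-coding genes.

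GIGYF1, the paralog of GIGYF2 (ENST00000275732.5, 24 exons, chr7:100679507-100689448, minus strand), had slope estimates above 0 in both cell populations on the TMM scale, but below 0 in shControl with library totals alone (-0.046, beside a median of -0.0855 over all rows). Its shControl values were 7.31 and 7.20 CPM at 0 h, 8.27 and 7.80 at 2 h, 9.41 and 9.31 at 4 h, 8.33 and 8.84 at 6 h, and 9.62 and 7.68 at 10 h. In shZNF598 it was at 6.67 and 7.80 CPM at 0 h, 8.07 and 8.84 at 2 h, 8.48 and 8.61 at 4 h, 9.89 and 10.8 at 6 h, and 10.6 and 11.7 at 10 h. The shZNF598 pair lay below the shControl pair at 4 h and above it at 6 and 10 h. The slope was 0.022 log2 per hour (SE 0.013, edgeR adjusted p = 0.132) in shControl and 0.062 (SE 0.013, adjusted p = 0.000209) in shZNF598. The call on the shControl slope varied with the window and the method. It passed over 0-4 h (0.081, edgeR adjusted p = 0.0425) and over 0-6 h (0.046, adjusted p = 0.0442). It also passed with DESeq2 size factors (0.034, edgeR adjusted p = 0.0183) and in the DESeq2 Wald test (0.034, adjusted p = 0.00934). With the replicate number as a block it did not pass (0.022, edgeR adjusted p = 0.138). Without the second shControl library of 10 h the estimate was 0.039.

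MAP3K20 was the gene of the list whose mean level over 0-10 h passed the test between the cell populations (ENST00000338983.7, 12 exons, chr2:173075842-173227146, plus strand). The shControl libraries gave 9.43 and 8.20 CPM at 0 h, 11.1 and 10.7 at 2 h, 8.45 and 9.29 at 4 h, 7.92 and 7.46 at 6 h, and 4.92 and 5.18 at 10 h. The shZNF598 libraries gave 10.9 and 10.1 CPM at 0 h, 11.7 and 13.6 at 2 h, 12 and 10.7 at 4 h, 10.8 and 8.95 at 6 h, and 7.98 and 6.20 at 10 h. Both shZNF598 libraries lay above both shControl libraries at each of the 5 times, which was the case for 2.05% of all rows and for no other gene of the list. The mean log2 difference over 0-10 h was 0.34 (SE 0.06, edgeR adjusted p = 0.000212), a 1.27-fold higher level, at percentile 97.4 of 15057 genes by 1 row each. It was 0.25, 0.22, 0.36, 0.35 and 0.50 at 0, 2, 4, 6 and 10 h in turn, with standard errors of 0.13-0.14.

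The MAP3K20 level fell in both cell populations. The slope was -0.094 log2 per hour (SE 0.020, edgeR adjusted p = 0.000321) in shControl and -0.068 (SE 0.020, adjusted p = 0.00523) in shZNF598, and the difference between them, 0.027 (SE 0.028), did not pass (adjusted p = 1). Without the second shZNF598 library of 10 h the shZNF598 slope was -0.046 (adjusted p = 0.0745), and over 0-4 h alone it was 0.027, with the level at 2 h above that at 0 h. At 24 h, with 1 library each, the order was the other way, with 5.63 CPM in shControl and 4.63 in shZNF598. ZNF598 itself differed less between these 2 libraries (4.8 and 2.36 CPM) than at 0-10 h.

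All 5 MAP3K20 rows tested were higher in shZNF598 over 0-10 h, by 0.24 to 0.36 on the log2 scale. The chosen row is the short form, ZAKβ, and ENST00000375213.8 is the long form, ZAKα, which is known to sense ribosomes through its C-terminal part. The long form was higher by 0.24 (SE 0.06, edgeR adjusted p = 0.00869). Both share 11 exons and 987 coding nt and part after chr2:173217250, where the short form reads on in the exon at chr2:173221150-173227146 and the long form in that at chr2:173229689-173229733. The coding sequence across this point, read from GENCODE release 44 transcripts, is shown because it is what tells the forms apart, with the last 30 shared bases in lower case and the first 60 bases of each form's own sequence in capitals.
ZAKβ, ENST00000338983.7: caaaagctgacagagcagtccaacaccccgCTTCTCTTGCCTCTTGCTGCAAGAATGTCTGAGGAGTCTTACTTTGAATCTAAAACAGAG
ZAKα, ENST00000375213.8: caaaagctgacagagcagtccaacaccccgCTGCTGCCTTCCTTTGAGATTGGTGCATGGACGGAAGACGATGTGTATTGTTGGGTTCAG

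The short form has 1368 coding nt in all and the long form 2403. A read within the shared exons could count for both rows, so the higher level of the forms was not shown independently.

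Across the list, few differences between the cell populations passed. At 0 h, before the chase, 0 of 10 genes passed the edgeR test, against 0.407% of all rows (DESeq2 also called 0). An unadjusted edgeR p under 0.05 was found for 0 of 10, beside 8067 of the 79513 rows. The log2 differences at 0 h ran from -0.09 (ASCC2) to 0.25 (MAP3K20) with a median of 0.0577, beside 0.0208 over all rows. That of TRIP4, 0.21 (SE 0.23), was set by the uneven shControl pair, as it was 0.73 without the first shControl library and -0.18 without the second.

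Over 0-10 h, 1 of 10 genes passed in the mean level (MAP3K20), against 22.4% of all rows in either direction and 12.3% in the higher direction. An unadjusted edgeR p under 0.05 was found for 4 of the 10, beside 27835 of the 79513 rows. The median difference of the list was 0.0494 on the log2 scale, beside 0.0198. ASCC3 came next, at -0.12 (SE 0.05, edgeR adjusted p = 0.0698), and passed when 1 of 3 libraries was left out, with -0.15 (adjusted p = 0.0202) without the second shControl library of 0 h, -0.16 (0.0190) without the first shZNF598 library of 6 h and -0.15 (0.0398) without the first of 10 h. GIGYF1 and EIF4E2 were each at 0.11 (SE 0.05, adjusted p = 0.130 and 0.114). Of the 112 other tested rows of the 10 genes, GIGYF2 ENST00000428883.5 (0.32, adjusted p = 0.0226) and EIF4E2 ENST00000258416.8 (0.16, adjusted p = 0.0385) passed beside the 4 of MAP3K20.

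**Figure D3:**
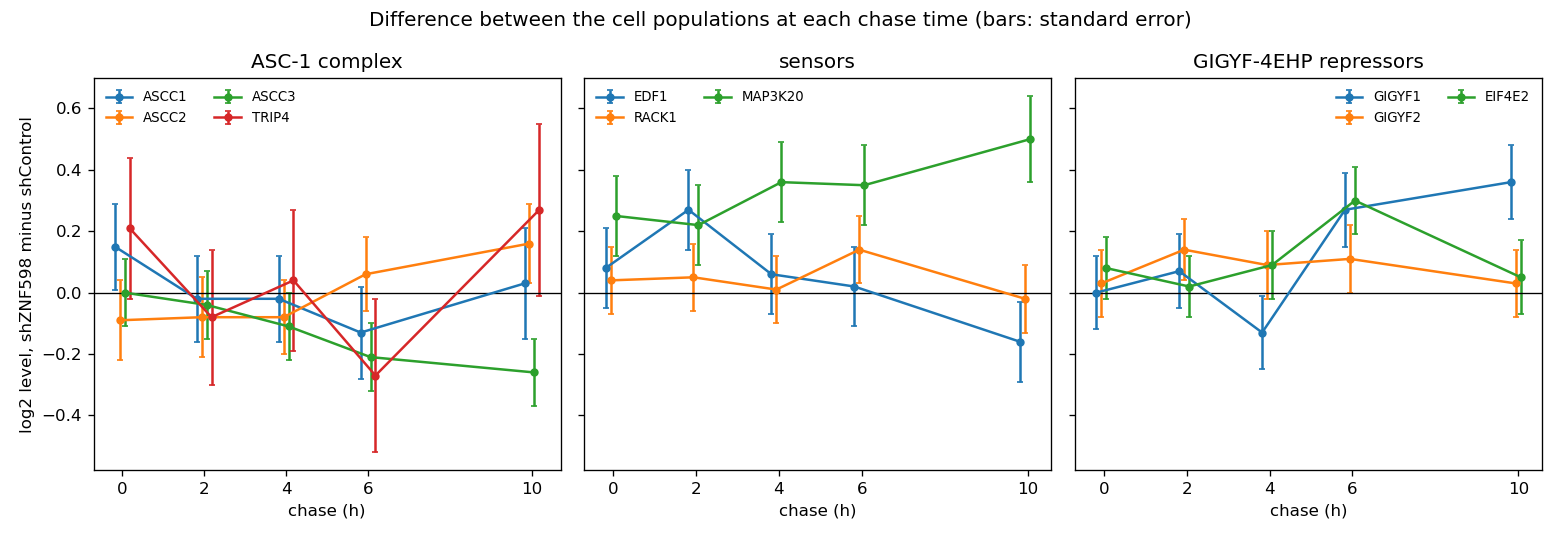
Log2 difference in level, shZNF598 minus shControl (y axis), at each chase time (x axis, h) for the ASC-1 complex, the sensors and the repressors. Points are edgeR estimates from 2 libraries per cell population, and bars are standard errors. MAP3K20 runs from 0.25 to 0.50 above the line of no difference, ASCC3 drifts to -0.26, and GIGYF1 reaches 0.36 at 10 h.

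The comparison of decay between the control and the ZNF598 hairpin is, for these genes, the difference between the slopes. It passed the edgeR test for 0 of 10 genes, against 0.116% of all rows. The largest difference was that of GIGYF1, 0.040 log2 per hour (SE 0.018, unadjusted p = 0.0399, adjusted p = 0.863). It was the only one of the 10 with an unadjusted p under 0.05, beside 4396 of the 79513 rows. DESeq2 called 0 as well. The GIGYF1 difference was -0.023 over 0-4 h alone. The lowest were those of EDF1, -0.031 (SE 0.024), and ASCC3, -0.028 (SE 0.025). ASCC3 went from a log2 difference of 0.00 at 0 h through -0.04, -0.11 and -0.21 to -0.26 at 10 h (SE 0.11 at each time), and GIGYF1 from 0.00 through 0.07, -0.13 and 0.27 to 0.36 (SE 0.12). For EIF4E2, RACK1, GIGYF2 and TRIP4 the estimate was within 0.007 of 0, with standard errors of 0.022-0.038. With 2 libraries per group, a difference that did not pass is not shown to be 0.

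Per kb of transcript, the scale on which genes can be compared, RACK1 was at 177 ± 27 CPM per kb in shControl at 0 h (SD, n = 2) and EDF1 at 17.9 ± 2.5. EIF4E2 followed at 5.46 ± 0.35. GIGYF2 (3.66 ± 0.46), ASCC2 (3.46 ± 0.16), ASCC3 (3.32 ± 0.42) and ASCC1 (3.16 ± 0.092) came next, and neighbours among these 4 overlapped. MAP3K20 (1.23 ± 0.12), GIGYF1 (1.11 ± 0.014) and TRIP4 (0.865 ± 0.37) were lowest, and the last 2 overlapped.

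After 10 h of chase the order had changed. RACK1 (589 ± 5.7) and EDF1 (29.4 ± 1.6) were still first, but ASCC3 now followed them at 6.36 ± 0.26, and EIF4E2 had dropped to 1.49 ± 0.071, below ASCC2 (3.82 ± 0.028) and GIGYF2 (2.76 ± 0.078). ASCC1, close to ASCC3 at 0 h, was at 0.869 ± 0.26 and overlapped with MAP3K20 (0.704 ± 0.025). The labelled mRNAs of the helicase ASCC3 and its partner ASCC1 thus went from overlapping levels to levels that lay apart, at 6.17-6.54 and 0.688-1.05 CPM per kb.

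**Figure D4:**
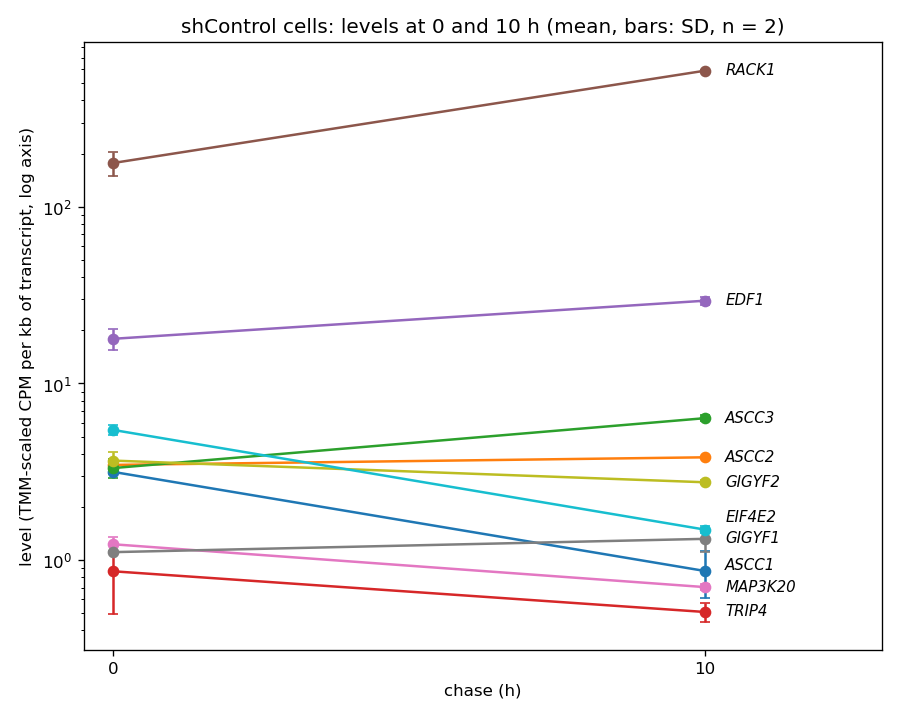
Level per kb of transcript in shControl cells (y axis, TMM-scaled CPM per kb, log axis) at 0 and 10 h of chase (x axis) for the 10 genes. Points are means of 2 libraries, bars are SD, and lines join the same gene. ASCC1, ASCC2, ASCC3 and GIGYF2 start together at 3.16-3.66, and EIF4E2 and ASCC1 drop while RACK1, EDF1 and ASCC3 climb.

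Correlations of log2 levels across the 20 libraries of 0-10 h, which share chase times and scaling and are given as a description only, sorted the genes the same way. ASCC1 ran with EIF4E2 (Pearson r = 0.94) and EDF1 with RACK1 (0.91). Partners within a complex could run together, as did GIGYF2 and EIF4E2 (0.87), or apart, as did ASCC1 and ASCC3 (-0.79). The paralogs GIGYF1 and GIGYF2 were at -0.60, and the lowest value was that of ASCC1 and RACK1 (-0.98).

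**Figure D5:**
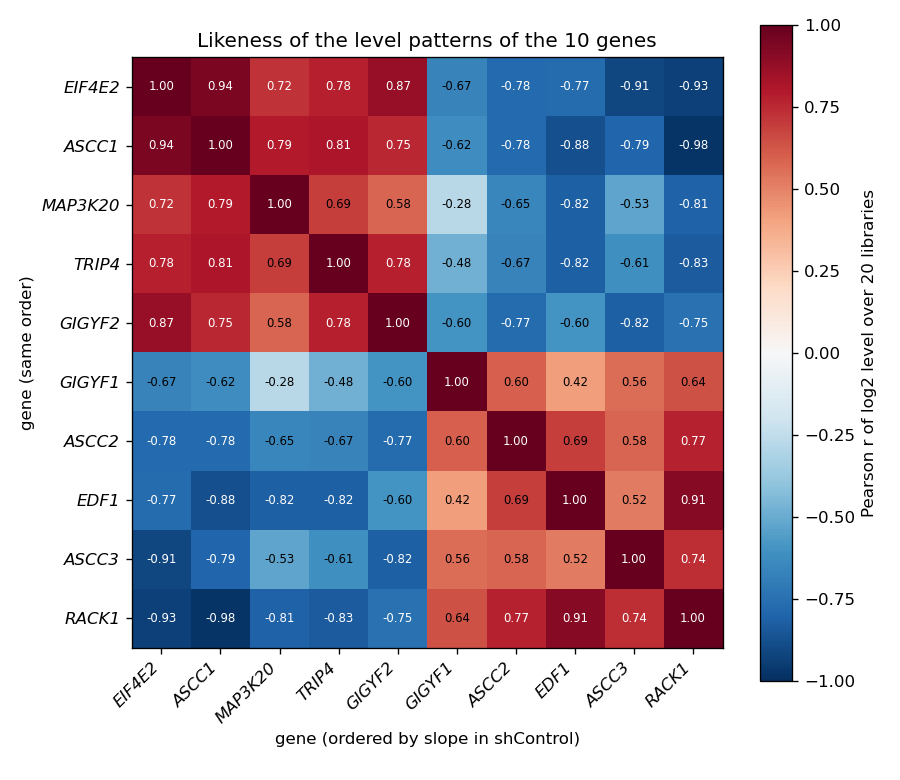
Pearson r of log2 level over the 20 libraries of 0-10 h for each pair of the 10 genes, both axes ordered by the shControl slope, with red for positive and blue for negative r. The 5 genes with negative slopes form a red block and the other 5 another, and the values between the blocks run from -0.28 to -0.98.

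Among 7841 other named genes at 5 CPM or more on average, the most similar pattern over the 20 libraries was that of METTL2B for ASCC1 (r = 0.992), AP2A1 for ASCC2 (0.933), CLASP2 for ASCC3 (0.986) and SON for TRIP4 (0.899). It was SELENOW for EDF1 (0.970), LIMA1 for MAP3K20 (0.978), ZSWIM8 for GIGYF1 (0.896), LRP6 for GIGYF2 (0.978) and MKRN2 for EIF4E2 (0.995). For RACK1 it was RPSAP9 (0.998), a pseudogene of a ribosomal protein gene, whose reads cannot be fully told from those of its parent.

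At 24 h there was 1 library per cell population, of 21220829 counts in shControl and 40157613 in shZNF598, and no test. These levels were scaled with all 22 libraries together, apart from the 20 of 0-10 h. ZNF598 was at 4.8 CPM in shControl and 2.36 in shZNF598, a smaller difference than at 0-10 h. RACK1 was at 419 and 473 CPM in shControl and shZNF598, below the 659-676 of 10 h. EIF4E2 was at 11.7 and 8.20 CPM and ASCC1 at 4.18 and 3.51, above all 4 of their libraries of 10 h, and GIGYF2 was at 37 and 34.1. TRIP4 was at 2.45 and 2.13 CPM, EDF1 at 20.6 and 23.8, ASCC2 at 11.2 and 10.8, ASCC3 at 55.5 and 41.5, and GIGYF1 at 8.53 and 13.1. The genes that had lost ground on the bulk to 10 h therefore stood higher at 24 h than at 10 h, apart from MAP3K20 in shZNF598, and 4 of the 10 slopes passed in shControl and 5 in shZNF598 when these libraries were added, beside 28.9% and 26.2% of all rows.

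A list of 24 further genes of the pathway was read in the same way, and all 24 passed the filter. Their slopes were positive and passed on the TMM scale for 8 in shControl and 7 in shZNF598, against 33.5% and 32.7% of all rows. They were negative and passed for 14 in each, against 40.8% and 38.5%. The difference between slopes passed for 0 of 24, against 0.116%. It had an unadjusted p under 0.05 for 0 of 24, beside 4396 of the 79513 rows. Among the 4 steepest with 1 hairpin or the other were those of the ZNF598 substrate RPS10 (slopes of 0.212 and 0.201 log2 per hour for shControl and shZNF598), RPS2 (0.217 and 0.214), which the ligase RNF10 ubiquitinates, the stress kinase p38α gene MAPK14 (-0.217 and -0.198), the decay helicase DDX6 (-0.203 and -0.193) and the cap-binding factor EIF4E (-0.188 and -0.198). RACK1 at 0.189 and 0.186 lay near the former, and ASCC1 and EIF4E2 near the latter.

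At 0 h, 0 of the 24 passed the edgeR test, against 0.407% of all rows. An unadjusted p under 0.05 was found for 2 of them, beside 8067 of the 79513 rows. In the mean level over 0-10 h, 5 of the 24 were higher in shZNF598 and 2 lower, against 12.3% of all rows in the higher direction and 22.4% in either. The higher ones were the small-subunit proteins RPS20 (log2 difference 0.25, edgeR adjusted p = 0.00209), RPS2 (0.25, 0.00706) and RPS3 (0.24, 0.00410), the deubiquitinase OTUD3 (0.20, 0.0267) and MAP2K7 (0.23, 0.0136), a kinase upstream of JNK. The lower ones were MAP2K4 (-0.41, adjusted p = 7.34e-06), which acts on JNK and p38, and MAP2K6 (-0.49, adjusted p = 3.26e-06), which acts on p38. MAP2K3, the remaining MAP2K gene of the list, was at 0.04 and did not pass (edgeR adjusted p = 0.846). MAP3K20, the kinase above the MAP2K genes in collision signalling, was at 0.34. MAPK8, MAPK9 and MAPK14 at the end of the cascade were at -0.01, -0.11 and 0.08 and did not pass.

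Some exons of the 10 genes overlap other genes in the annotation. MAP3K20 shares 107 nt with MAP3K20-AS1 on the opposite strand, EIF4E2 840 nt with a long noncoding RNA on the opposite strand, and GIGYF2 186 nt with SNORC on the same strand. The library kit keeps the strand, but whether strand was used in counting was not given in the sources used here, so part of these counts could belong to the partner.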

How the data were processed

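Labelled RNA was measured in 22 libraries of HEK293T cells with a control or a ZNF598 hairpin. The authors made libraries with a stranded total RNA kit after rRNA removal, trimmed 50-nt reads, aligned them to hg38 with STAR 2.7.0a, allowing 1 mismatch and 1 locus per read, and counted them per GENCODE release 32 transcript with featureCounts. The deposited values are these raw read counts, with the transcript length in codons beside each (other values were not used). Groups and replicate numbers came from the titles of the samples.

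Transcripts were named with GENCODE release 44 (92.2% of 227264 identifiers matched with version and 98.4% without, and those unmatched held 2.2% of the counts). The fit kept 79513 rows, those whose CPM averaged 1 or more in the 20 libraries of 0-10 h, and used TMM scaling. edgeR 4.0.16 in R 4.3.3 fitted 1 mean per group for levels, and hairpin, chase hours and their product for slopes, with quasi-likelihood tests, Benjamini-Hochberg values over all rows and a threshold of 0.05 on the adjusted p. The standard error was the estimate divided by the square root of F. DESeq2 1.42.0 was an alternative. The functions were tested on simulated counts with 200 changed rows and a dispersion of 0.02. They recovered 69.5% of log2 changes of 1 at 0 h and 27.5% of log2 changes of 0.35 in the mean level. For shControl slopes of 0.1 log2 per hour they recovered 79%, and for slope differences of that size 21.5%. The 24 h libraries entered only 1 alternative.

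The 10 genes and the lists were chosen with earlier results of these data known. The rule named all 10 genes, each pathway gene that passed in a difference between the hairpins, and the 4 steepest slopes per hairpin. The other rows of a gene that are named singly, and MAP2K3, MAPK8 and MAPK9, were chosen after their values were seen. Genes with similar patterns were sought among rows with a gene name only. Printed CPM divide counts by the library total times its TMM factor (24 h libraries were scaled with all 22), and the filter used CPM of plain totals. Library totals alone were an alternative added after the data were seen. Totals give little counting error at these levels, and TRIP4, with a mean of 114.0 counts, was the least precise. A marker of another cell type that was looked up is not reported here.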

Additional observations from a re-analysis of the deposited data

How the results depend on the processing

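Of the 10 genes, the number that passed was 0 at 0 h and 0 for the slope difference under every alternative run and with each library left out. In the mean level it was 1, and 2 (with ASCC3) with 1 row per gene in the fit, with the 2-10 h libraries alone (an alternative added after the data were seen), or without 1 library in 3 of 20 cases (range 1-2). MAP3K20 passed in all of these. In the slopes, 8 genes passed in shControl (8-9 with a library left out) and 10 in shZNF598 (8-10), but 4 and 3 over 0-4 h, and 4 and 5 over 0-24 h. With library totals alone in place of TMM (added after the data were seen) they were 8 and 6. Of all rows, 74.4% in shControl and 71.2% in shZNF598 passed with TMM, and 78.5% and 75.8% with library totals alone. Over 0-4 h the shares were 34.2% and 33.9%, and over 0-24 h 28.9% and 26.2%. ZNF598 stayed between -3.11 and -3.00 with each library left out.

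Over all rows, the 324 calls at 0 h became 788 without the filter, 550 with DESeq2, 92 with 1 row per gene and 11 from the 0 h libraries alone. The 92 slope differences became 506 with DESeq2, 586 with the trend of group means, 46 without the filter, 52 over 2-10 h, 22 over 0-6 h, 10 with 1 row per gene, 35 with library totals alone, and 0 over 0-4 h and 0-24 h. The 59120 shControl and 56621 shZNF598 slopes became 27163 and 26946 over 0-4 h and 22969 and 20828 over 0-24 h.

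Signs turned under the settings below, and the cause was not tested. With library totals alone a slope of 0 did not mark the bulk, as the medians of all rows were -0.0855 in shControl and -0.0755 in shZNF598. The signs that turned on that scale were those of the slopes of ASCC2 (-0.041) and GIGYF1 (-0.046) in shControl and of ASCC2 (-0.006) and EDF1 (-0.005) in shZNF598, the differences at 0 h of RACK1 (-0.01) and GIGYF2 (-0.02), the mean level of ASCC1 (-0.01) and the slope differences of RACK1 (0.005) and GIGYF2 (0.004). At 0 h, under the other settings, they were ASCC3 (0.02) and GIGYF1 (0.02) without the filter, EDF1 (-0.02) in its longest row and GIGYF2 (-0.01) in the 0 h libraries alone. In the mean level they were ASCC1 (-0.01 with 1 row per gene, -0.04 in the 2-10 h libraries), ASCC2 (0.00 without the filter, 0.01 in the 2-10 h libraries) and TRIP4 (-0.02 in the latter). Over 0-4 h the slopes of ASCC2 (-0.011) and EDF1 (-0.015) in shControl and of EDF1 (-0.010) and MAP3K20 (0.027) in shZNF598 turned, and over 0-24 h those of TRIP4 (0.004) and GIGYF2 (0.012) in shControl and of GIGYF2 (0.004) in shZNF598. The slope differences that turned were TRIP4 (-0.035), EDF1 (0.004), RACK1 (0.003), GIGYF1 (-0.023) and GIGYF2 (0.025) over 0-4 h, TRIP4 (-0.061), RACK1 (0.015) and GIGYF2 (0.011) over 0-6 h, TRIP4 (-0.007), RACK1 (0.001), MAP3K20 (-0.018) and EIF4E2 (-0.023) over 0-24 h, ASCC1 (0.002) over 2-10 h, and RACK1 (0.000) in its longest row.

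With a library left out, signs turned at 0 h for ASCC3 (-0.13 to 0.12), TRIP4 (-0.18 to 0.73), EDF1 (-0.07 to 0.23), RACK1 (-0.12 to 0.20), GIGYF1 (-0.12 to 0.10) and GIGYF2 (-0.10 to 0.15), in the mean level for ASCC1 (-0.05 to 0.07), ASCC2 (-0.04 to 0.03) and TRIP4 (-0.05 to 0.13), and in the slope difference for ASCC1 (-0.037 to 0.005), TRIP4 (-0.021 to 0.037), RACK1 (-0.025 to 0.013), GIGYF2 (-0.013 to 0.011) and EIF4E2 (-0.010 to 0.023).

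The labels did not say whether same-numbered libraries of the 2 hairpins belonged together. Their deviations correlated at -0.005, 0.12, 0.35, 0.299 and -0.228 from 0 to 10 h, mixed values that do not settle it. With the replicate number as a block, 0, 1, 8, 10 and 0 genes passed at 0 h, in the mean level, in the shControl and shZNF598 slopes and in the slope difference, the same counts as without it, and MAP3K20 was at 0.33 (edgeR adjusted p = 0.000113).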
